A study of Mus musculus with 22 samples.

Results

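The DNA examined is the stretch of mouse chromosome 12 that holds the kinase gene Akt1 and ends shortly before the immunoglobulin heavy chain locus Igh. Its members are the 399 array probes, of 232628 with a position, whose midpoint lies between 107.80 and 110.71 Mb by the coordinates of the array files. The boundaries were selected on the copy number of these arrays, from arrays with loss and arrays with gain right before Igh, so levels and calls over the stretch are a description and carry no test between groups. Array comparative genomic hybridisation, in which 2 DNA samples labelled with different dyes compete for the same probes, was run on thymocyte DNA of 22 untreated mice deficient for Atm, a kinase activated by broken DNA, with 1 array per mouse. A T-cell lymphoma was recorded for 8 of these Atm-deficient mice, and 14 Atm-deficient mice had no visible finding. Both groups carried the Atm deficiency, and each was set against DNA of wildtype thymocytes, labelled with Cy3 on every array while the Atm-deficient DNA carried Cy5, so dye and genotype cannot be told apart. Strain, age, sex and the altered part of Atm are not given in the labels. Every value below is the log2 of Atm-deficient over wildtype signal, centred within each array on the median of its autosomal probes.

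Akt1 encodes a serine/threonine kinase that is recruited to the membrane by the lipid product of PI3-kinase, is switched on by Pdpk1 and the Mtor complex that contains Rictor, and promotes growth and survival of thymocytes and other cells. The lipid phosphatase Inpp4b opposes it. Igh is cut and joined by the RAG recombinase during B-cell development, and partial joining also occurs in early thymocytes. In a pure diploid sample the loss of 1 of 2 copies would read -1.0, and a gain to 3 copies 0.58. Bulk DNA does not tell a change in fewer cells from a smaller change in every cell.

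Akt1 was read by 4 probes over 18.7 kb, whose sequences are shown because every statement on the gene rests on them. They are printed 5′ to 3′ as the array files give them, with no strand and with coordinates of a build not given in the sources used here.
A_53_P139082, Akt1, chr12:110179406-110179462: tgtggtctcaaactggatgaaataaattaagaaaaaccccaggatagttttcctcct
A_67_P02609852, Akt1, chr12:110187618-110187677: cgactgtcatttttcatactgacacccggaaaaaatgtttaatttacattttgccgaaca
A_67_P07754819, Akt1, chr12:110191088-110191145: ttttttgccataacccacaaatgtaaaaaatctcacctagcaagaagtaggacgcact
A_53_P126078, Akt1, chr12:110198033-110198087: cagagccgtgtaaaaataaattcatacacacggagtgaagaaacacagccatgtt
The next probes bound places where the copy number of an array stepped up inside the window or fell past its Igh end.
A_53_P135912, last probe before the step in Ppp1r13b, chr12:109371631-109371690: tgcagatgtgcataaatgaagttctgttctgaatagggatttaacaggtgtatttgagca
A_67_P07752731, first probe after it, chr12:109383121-109383180: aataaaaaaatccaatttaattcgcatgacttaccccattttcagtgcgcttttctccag
A_67_P02608188, last probe before the step in Klc1, chr12:109300116-109300175: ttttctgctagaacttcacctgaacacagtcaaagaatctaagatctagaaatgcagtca
A_67_P02608197, first probe after it, chr12:109304941-109305000: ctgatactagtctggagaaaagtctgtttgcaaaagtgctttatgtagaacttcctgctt
A_67_P07756810, last probe before the shared step in the Igh probes, chr12:110947649-110947708: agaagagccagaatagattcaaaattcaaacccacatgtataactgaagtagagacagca
A_67_P07756830, first probe after it, chr12:110953308-110953367: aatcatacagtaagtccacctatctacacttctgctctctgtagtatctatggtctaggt
The last pair carries the name LOC238447, which the array files describe as similar to an immunoglobulin heavy chain variable region. Probes of the window were 45 to 60 bases long with a median of 60, as on the autosomes, and a mean GC content of 37.4% against 36.6%. None of them held the AGCT site of AluI or the GTAC site of RsaI, the enzymes used to cut the DNA. Of the 220065 autosomal probes, 0.0223% and 0.0136% held them. The midpoints were spaced 5562 bp apart in the median, with 1 gap of 210 kb between 110411657 and 110621963.

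Probes of the targeted gene were set beside the array labels, although they cannot show by themselves which arrays are turned. One of 12 Atm probes read 0.95 to 1.32 in the 8 lymphoma arrays, and the labels do not say whether it lies in the altered part. In the no-lymphoma group this probe read -1.08, -0.72 and -0.63 in the arrays labelled as mice 1, 3 and 4, and 0.44 and 0.08 in mice 5 and 6, while the other 9 arrays lay between 0.67 and 1.69. Averaged over all 12 Atm probes, no-lymphoma mice 1, 3, 4 and 14 read -0.15, -0.11, -0.18 and -0.12. Mice 5 and 6 read 0.11 and 0.01, and the lymphomas 0.12 to 0.31. Which arrays are low thus depends on the probes used, and leaving out arrays by the single probe keeps mouse 14. In the no-lymphoma group, the arrays labelled mouse 3 and 4 and that of mouse 9 were the noisiest of the 22, with a probe SD of 0.55, 0.49 and 0.51 against 0.13 to 0.37 in the others. These 3 correlated with each other over autosomal probes at 0.82 to 0.87, and with lymphoma mouse 3 at -0.44, -0.48 and -0.41. The array of mouse 9 had the highest Atm probe, at 1.69, although it correlated positively with the arrays labelled mouse 3 and 4, where that probe was below 0. The probe and the correlations thus point different ways for mouse 9. The direction of the arrays labelled mouse 1, 3, 4 and 9 is therefore not settled. The no-lymphoma values below are as labelled unless an alternative is named. Without the 5 arrays in which the Atm probe was low, the 9 others averaged -0.01 ± 0.30 over the window, 0.13 ± 0.47 at Akt1, -0.14 ± 0.34 in the 1 Mb before the window and -0.20 ± 0.22 beyond Igh (SD). Over window genes of at least 3 probes, the no-lymphoma median then moved by at most 0.0855. The scan details in the file headers divide the arrays into 6 batches, and batches 2 and 4 held no lymphoma array.

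Of 8 lymphomas, 6 had lost the stretch and 2 had gained its Akt1 end. The mean over the probes of the window was -0.72, -0.72, -0.71, -0.78, -0.83 and -0.67 in lymphoma mice 2, 3, 4, 5, 6 and 8. It was 0.89 in lymphoma mouse 7 and 0.11 in lymphoma mouse 1. Among the no-lymphoma mice the mean was lowest at -0.35 in mouse 14, with a median of 0.02, and highest at 0.66 in mouse 2. The array labelled no-lymphoma mouse 1 read 0.37, or -0.37 with its sign turned, which would be the lowest of the group. Mouse 11 read -0.27 and mouse 7 read -0.25. The remaining no-lymphoma arrays lay between -0.15 and 0.08. The 2 groups therefore overlapped in range, although 6 lymphoma arrays lay below every no-lymphoma array. The group means were -0.43 ± 0.61 in lymphoma and 0.02 ± 0.26 in no lymphoma (SD, n = 8 and n = 14).

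**Figure D1:**
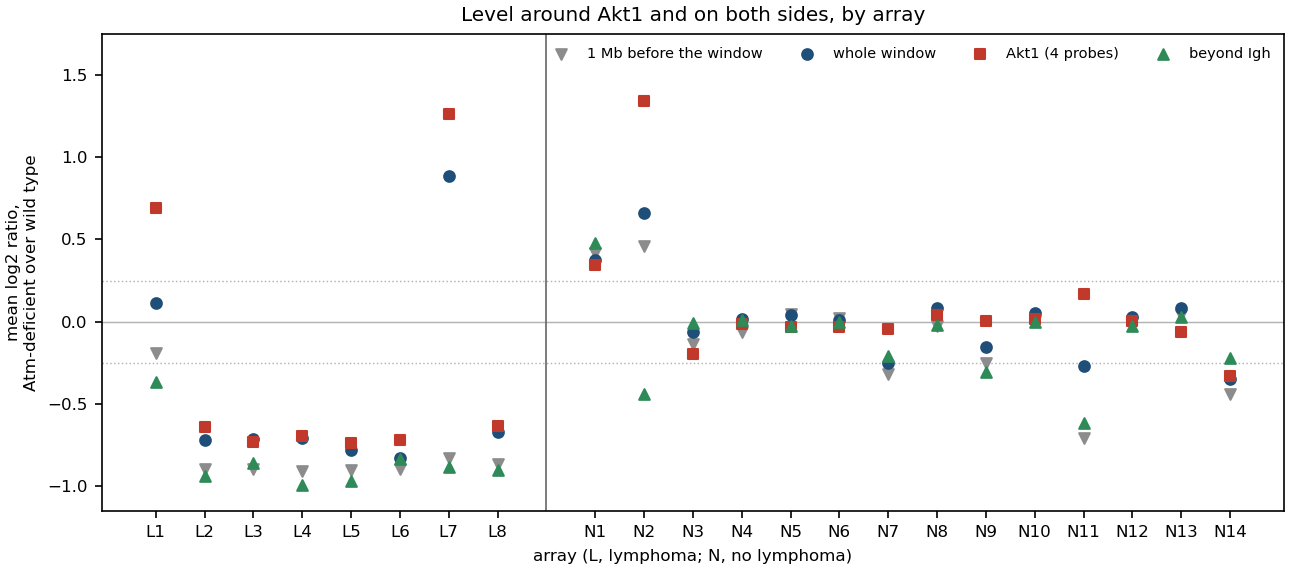
Mean log2 ratio in each array (L, lymphoma; N, no lymphoma) over 1 Mb before the window, the whole window, the 4 Akt1 probes and chromosome 12 beyond Igh; dotted lines mark the limits of 0.25 and -0.25 used for calls. In L1, L7 and N2 the Akt1 squares stand above 0.6 while the triangles beyond Igh lie below -0.3.

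Both sides of the window read lower than the window itself in all 8 lymphomas. The 1 Mb before it lay 0.30 below the window mean in lymphoma mouse 1 and 0.07 to 0.20 below it in the losing lymphomas. In lymphoma mouse 6 the stretch beyond Igh was lower only at -0.833 against -0.827. The 1 Mb before the window read 0.46 in no-lymphoma mouse 2 and 0.42 in the array labelled no-lymphoma mouse 1. Over the 117 probes of the 1 Mb before the window, the 8 lymphomas averaged -0.80 ± 0.25 and the 14 no-lymphoma mice -0.07 ± 0.30 (SD). Lymphoma mouse 7 read -0.83 there, 1.72 below its own window mean. Beyond Igh, over 456 probes from the zinc finger gene Zfp386 on, lymphomas averaged -0.84 ± 0.20 and no-lymphoma mice -0.10 ± 0.26. All 8 lymphomas were below 0 on both sides of the window, from -0.91 to -0.19 before it and from -0.995 to -0.368 beyond Igh. Lymphoma mouse 1 had the highest of these values in both places. Over the 8991 probes of chromosome 12 farther off before the window, lymphoma arrays had medians of -0.09 to 0.04 and no-lymphoma arrays medians of -0.07 to 0.26.

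Akt1 itself followed this division. Its mean over 4 probes was 0.69 in lymphoma mouse 1 and 1.26 in lymphoma mouse 7. The other 6 lymphomas read -0.74 to -0.64. In the no-lymphoma group the lowest value was -0.33 in mouse 14, the median -0.01 and the highest 1.34 in mouse 2. The array labelled no-lymphoma mouse 1 followed at 0.34 and mouse 11 at 0.17. With its sign turned, the array of mouse 1 would be the lowest of the group at -0.34. Ordered by level, no-lymphoma mouse 2 and lymphoma mouse 7 stood together at the top and lymphoma mouse 1 came next, well below them. Then came a run from 0.34 to -0.33 that held no-lymphoma arrays alone, and the 6 losing lymphomas came last. The mean was -0.27 ± 0.79 in lymphoma and 0.09 ± 0.39 in no lymphoma (SD, n = 8 and n = 14), a difference of -0.36 that is smaller than the SD of either group. A fit that blocked on the scan batch gave -0.65. The difference was -1.59, -0.65 and -0.57 within scan batches 1, 3 and 5, but 0.34 within batch 6. Batch 6 consisted of 2 lymphoma arrays (mice 6 and 7) and 1 no-lymphoma array. Batch 1 consisted of 3 lymphoma arrays and 1 no-lymphoma array, that of mouse 2, which had the highest Akt1 value. The blocked fit also draws on that array. The difference was -0.40 when the 5 arrays in which the Atm probe was low were left out.

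All 4 Akt1 probes were above 0 in the 3 arrays with the highest means. They read 1.15 to 1.36 in lymphoma mouse 7, 0.44 to 0.81 in lymphoma mouse 1 and 1.07 to 1.46 in no-lymphoma mouse 2. In lymphoma mouse 8 they spread from -1.07 to -0.08, the widest range among the losing lymphomas. Probe A_67_P07754819 read higher than the others over the no-lymphoma group, with a mean of 0.29 ± 0.46, and was the highest of the 4 over lymphomas too, at -0.13 ± 0.70.

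Segmentation of chromosome 12, in which neighbouring probes of 1 level were joined, called Akt1 lost (segment mean of -0.25 or less) in 6 of 8 lymphoma mice and 0 of 14 no-lymphoma mice. It called Akt1 gained (0.25 or more) in 2 of 8 lymphoma mice and 2 of 14 no-lymphoma mice, and the last 10th of the window gave the same counts. The 2 no-lymphoma gains were mouse 2 and the array labelled mouse 1. Leaving out the 5 arrays in which the Atm probe was low gave 1 no-lymphoma gain. Turning the sign of those labelled mouse 1, 3 and 4 gave 1 gain and 1 loss in that group, and both settings were chosen after seeing the data. In no-lymphoma mice 14, 9 and 7 the segment over Akt1 lay just inside the limit, at -0.24, -0.23 and -0.20. Of 70 genes in the window, 67 were lost in at least 6 of 8 lymphomas, where 0.731% of 24638 autosomal genes met that count. Of these, 23 were also lost in none of the 14 no-lymphoma arrays, which 0.101% of the autosomal genes met. All 70 were both lost in at least 1 lymphoma and gained in at least 1 other, against 2.93% of the autosomal genes. Over both groups together 7.09% of the autosomal genes were lost in 1 array and gained in another, as were all 70. These shares follow from how the window was drawn and support nothing about it.

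In 4 arrays the level rose at places that differed between them, in or just before the window. It fell below 0 at a shared or neighbouring place past the Igh end of the window. Inside the window the segment mean changed sign only in lymphoma mouse 1 and no-lymphoma mouse 11. Lymphoma mouse 7 changed just before it, and no-lymphoma mouse 2 was above 0 up to the Igh probes. The plots of probes against distance show the 4 arrays concerned. In lymphoma mouse 7 chromosome 12 was lost up to 107786690 (segment mean -0.64) and gained from 107790547 (0.64), just before the window opens, between the imprinted gene Rtl1 and the deiodinase gene Dio3. Its segment mean was 1.27 from 109383121 on, with the step inside Ppp1r13b between the probes printed above. In no-lymphoma mouse 2 the level was 0.17 at the start, 0.32 from 108912263, and 1.07 from 109304941, inside the kinesin light chain gene Klc1. It was 1.33 from 109645717 and 1.08 over the last probes. In lymphoma mouse 1 the level was -0.18 up to 108354682, next to the kinase gene Mok, and -0.02 up to 109779347. From 109812290 it was 0.44, and then 0.77 from 109998063 to 110287646, the segment that holds Akt1, and 0.46 beyond a step in the phospholipase-family gene Pld4. In no-lymphoma mouse 11 the level was -0.69 up to 108971351 in Tnfaip2, -0.10 up to 110107673 next to Tmem179, and 0.15 from 110122182 on, just before the formin gene Inf2. That last level is below the limit for a gain.

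**Figure D2:**
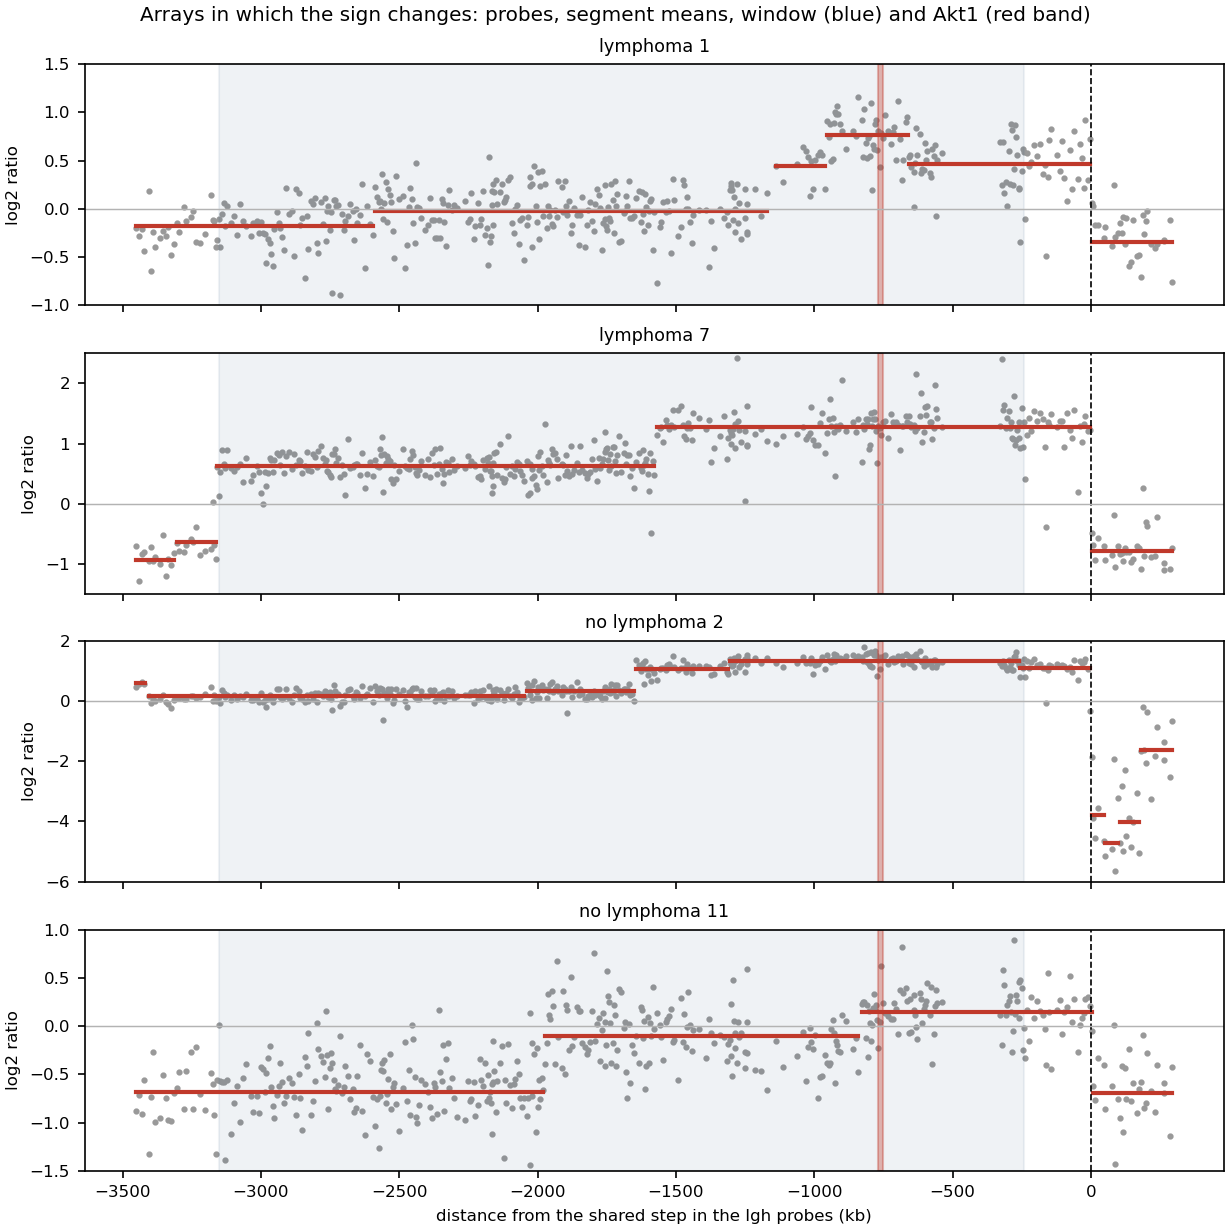
Log2 ratio of each probe (grey) and segment means (red lines) against the distance in kb from the step in the Igh probes, for lymphoma mice 1 and 7 (upper panels) and no-lymphoma mice 2 and 11 (lower panels); the blue field is the window and the red band Akt1. Each array is above 0 at Akt1 and below 0 past the dashed line, and the steps upward on the way to Akt1 lie at different distances in each.

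At the Igh end 4 arrays stepped in the same interval of 5599 bp, after the probe ending at 110947708 and before the probe starting at 110953308. They came from lymphoma mice 1, 5 and 7 and from 1 no-lymphoma mouse, number 2. The next interval held a step in no-lymphoma mice 10 and 11. The shared interval lies 750 kb past Akt1 and 238 kb past the end of the window, among probes named LOC238447. Over the 10 probes before and the 10 after it, lymphoma mouse 7 read 1.16 and -0.70, lymphoma mouse 1 read 0.53 and -0.14, and no-lymphoma mouse 2 read 1.005 and -3.94. No-lymphoma mouse 11 read 0.16 and -0.58. In these 4 arrays the mean turned from above to below 0 by more than 0.5. It also crossed 0 downward in no-lymphoma mice 8, 10 and 13, with changes of -0.14 to -0.05, and upward in no-lymphoma mouse 5, by 0.11. Lymphomas 5 and 6 were already lost and fell further, with -0.78 and -1.78 in mouse 5 and -0.82 and -1.34 in mouse 6. The remaining arrays changed by -0.28 to 0.19 across the interval. In no-lymphoma mouse 2 the last probe before it already read -0.34, so the step there may lie 1 probe earlier. At a noise SD near 0.5 simulated steps of 0.4 around 100 probes were placed over 5 probes off in 9 of 40 cases. The 3 noisiest arrays had no step in the window or at its Igh end, and small steps there could be missed. Changes over fewer probes were not simulated.

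From the first to the last 10th of the window, 4 of 22 arrays climbed by more than 0.25. The climb was 0.62 in lymphoma mouse 1, 0.73 in lymphoma mouse 7, 1.09 in no-lymphoma mouse 2 and 0.88 in no-lymphoma mouse 11. In the other 6 lymphomas it was 0.07 to 0.13, and in the other 12 no-lymphoma mice -0.14 to 0.09. In the map by 10ths, lymphoma mouse 1 turns red at column 8, lymphoma mouse 7 and no-lymphoma mouse 2 deepen at column 6, and no-lymphoma mouse 11 pales at column 5. The losing lymphomas are blue in every column, from -1.04 to -0.31.

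**Figure D3:**
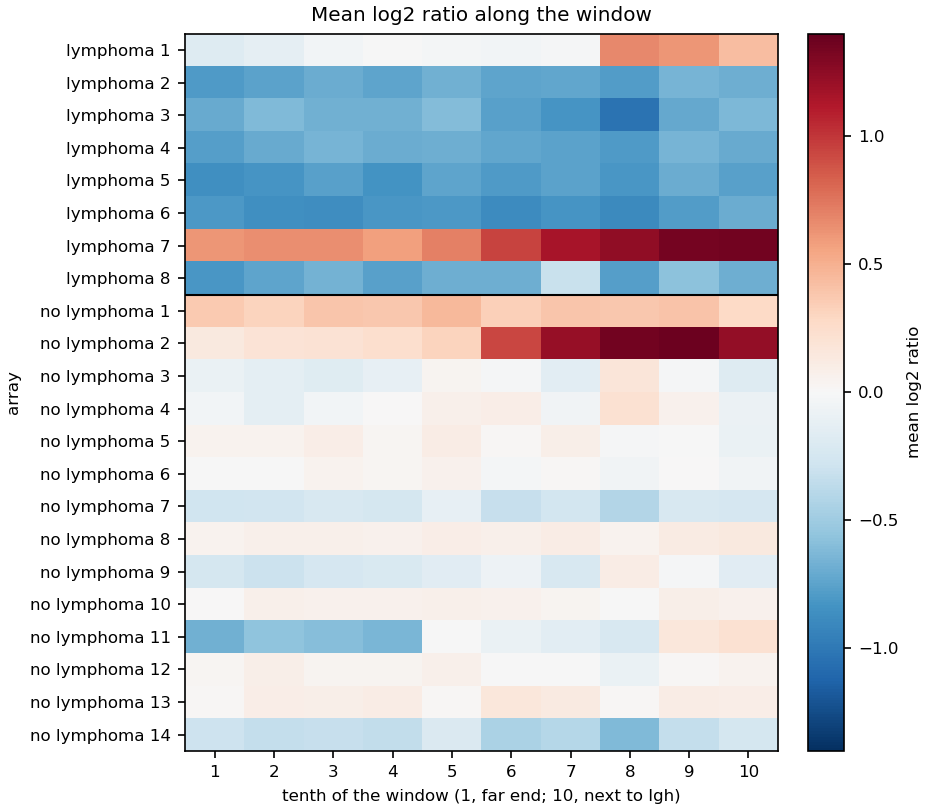
Mean log2 ratio in each 10th of the window (columns, 291 kb each, column 10 next to Igh) for each array (rows, lymphoma above the line); blue is below 0 and red above. In the last column, lymphoma mouse 7 reads 1.347 and no-lymphoma mouse 2 reads 1.23, against -0.63 to -0.76 in the 6 losing lymphomas.

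Genes of the window are described by their role, from lists chosen with earlier results of these data known. Of 35 listed genes 26 had a probe by name, 13 of them at least 3 probes. The other 9 had none by that name in the window, among them the Notch ligand gene Jag2. All 26 were called lost in 6 of 8 lymphomas, as were 67 of all 70 window genes, against 0.731% of autosomal genes lost in at least 6. The count follows from the window and says nothing about the roles.

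Among the kinases and adaptors, Traf3, which restrains non-canonical NF-kappaB signalling, was lowest at -0.88, had a median of -0.73 and was highest at 0.61 over lymphomas. Its no-lymphoma values ran from -0.60 in mouse 11 over a median of 0.07 to 0.39. Mark3, a microtubule-affinity regulating kinase, ran from -0.83 to 0.63 with a median of -0.73 in lymphomas, and from -0.23 to 0.51 with a median of 0.08 in no-lymphoma mice. Cdc42bpb, a kinase downstream of Cdc42, ran from -0.96 to 0.61 in lymphomas and from -0.61 to 0.33 in no-lymphoma mice. In all 3 genes the single lymphoma above 0.1 was mouse 7, and lymphoma mouse 1 lay between -0.14 and 0.03. Mok and Cinp, a kinase gene and the gene of a Cdk2-binding protein, ran from -1.11 to 0.48 and from -0.74 to 0.62 in lymphomas, and from -0.63 to 0.20 and from -0.58 to 0.24 in no-lymphoma mice.

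Genes of cell survival and death sat on both sides of the inner steps. Ppp1r13b encodes ASPP1, which directs p53 to apoptosis genes, and the step of lymphoma mouse 7 runs through it. It read 0.90 in lymphoma mouse 7, -0.14 in lymphoma mouse 1 and -0.91 to -0.60 in the other lymphomas, and -0.34 to 0.31 in no-lymphoma mice except 1.02 in mouse 2. Siva1, a pro-apoptotic gene beside Akt1 with 1 probe, read 0.92 and 1.22 in lymphoma mice 1 and 7 and -0.56 to -0.30 in the others, with a no-lymphoma median of 0.27 and 1.54 in mouse 2. Tnfaip2, induced by tumour necrosis factor, and Bag5, a co-chaperone of Hsp70, had lymphoma medians of -0.52 and -0.81. Their no-lymphoma medians were 0.14 and -0.07, and the single Bag5 probe reached 1.51 in the array labelled no-lymphoma mouse 3. Xrcc3, a gene of homologous recombination with 1 probe, read 0.65 in lymphoma mouse 7 and -0.73 to -0.23 in the other 7 lymphomas. Hsp90aa1, the inducible Hsp90 chaperone, had a lymphoma median of -0.54 and a no-lymphoma median of 0.23.

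Among motor and cytoskeleton genes, Klc1 read 0.61 in lymphoma mouse 7, 0.00 in lymphoma mouse 1 and -0.93 to -0.73 in the other lymphomas. In no-lymphoma mouse 2, where a step crosses the gene, it read 0.80, and it was lowest at -0.62 in no-lymphoma mouse 14. Dync1h1, the dynein heavy chain, ran from -0.90 to 0.73 in lymphomas and from -0.67 to 0.33 in no-lymphoma mice. Inf2, which lies past all inner steps upward, read 1.33 in lymphoma mouse 7 and 1.55 in no-lymphoma mouse 2, with medians of -0.47 in lymphoma and 0.14 in no lymphoma. Of the transcription and translation genes, Mta1, a subunit of the NuRD repressor, had the highest lymphoma value of any window gene with 3 or more probes, 1.59 in mouse 7, and a lymphoma median of -0.73. Rcor1, the CoREST scaffold, had medians of -0.66 in lymphoma and 0.08 in no lymphoma. Eif5, a translation initiation factor with 1 probe, stood closest to 0 of the listed genes, with -0.35 to 0.00 in the losing lymphomas, although the segment around it was called lost there. The creatine kinase gene Ckb and Adssl1, an enzyme of purine synthesis, had lymphoma medians of -0.65 and -0.63. The LIM-domain genes Crip1 and Crip2, the receptor gene Gpr132, Pld4 and Cdca4 had lymphoma medians of -0.58 to -0.42 and no-lymphoma medians of -0.13 to 0.13. Ahnak2, with 1 probe, ran from -1.25 to 1.27 in lymphomas and from -0.39 to 1.23 in no-lymphoma mice.

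**Figure D4:**
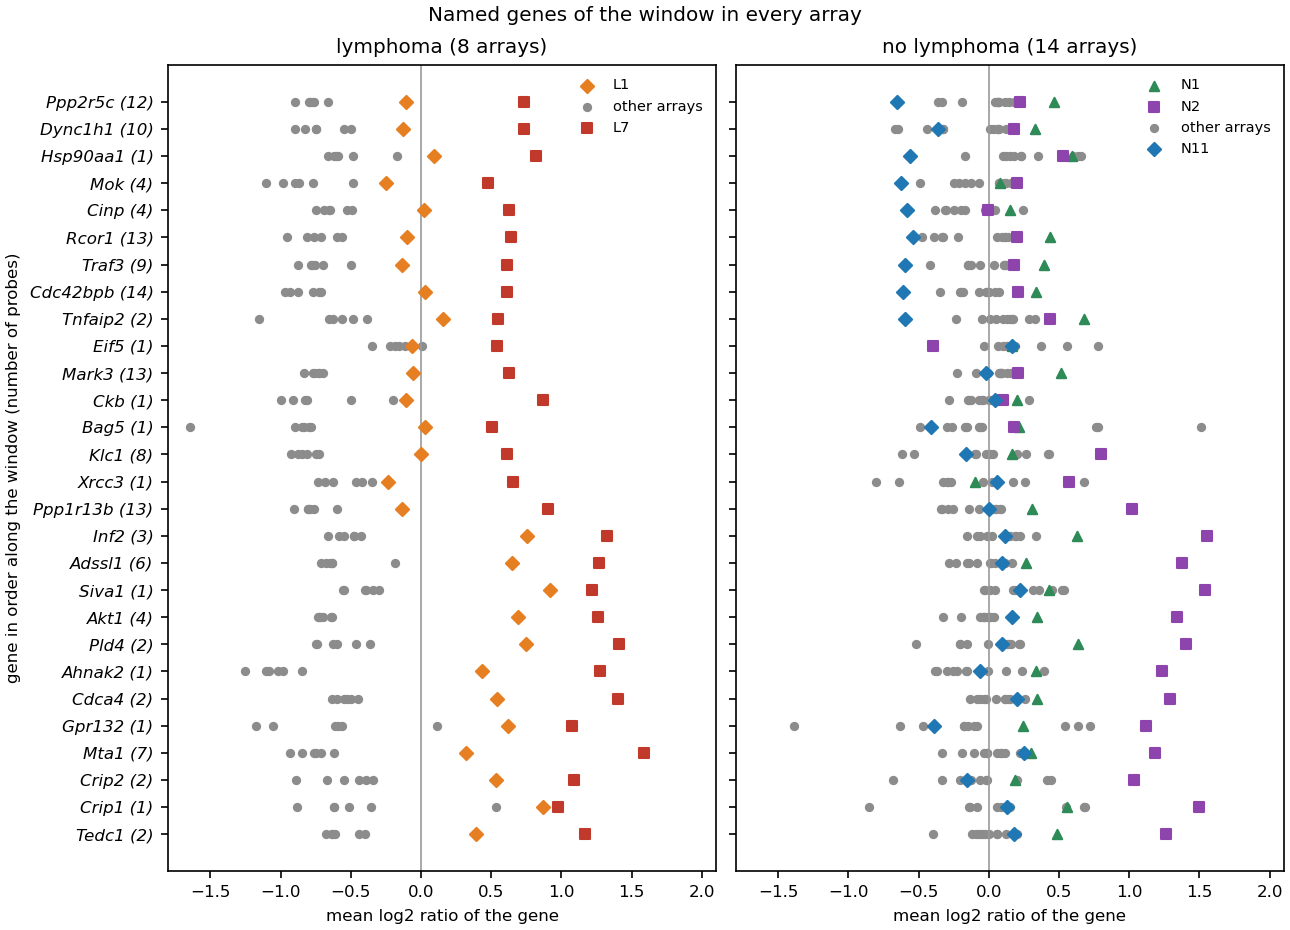
Mean log2 ratio of named genes in order along the window (number of probes in brackets) in 8 lymphoma arrays (left) and 14 no-lymphoma arrays (right), with the arrays that change sign and the array labelled no-lymphoma mouse 1 marked. From Inf2 on, lymphoma mouse 1 lies at 0.32 or more, and no-lymphoma mouse 2 lies above 0.5 from Klc1 on, while the grey lymphoma points lie left of 0 but for 1 at Eif5, 1 at Gpr132 and 1 at Crip1.

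The window begins with Ppp2r5c, a regulatory subunit of phosphatase 2A, among genes with a RefSeq name, and ends with Tedc1. Ppp2r5c had medians of -0.77 in lymphoma and 0.06 in no lymphoma, and Tedc1 -0.53 in lymphoma and 0.03 in no lymphoma. Over all 22 arrays, genes with at least 3 probes had an SD of 0.35 at Amn to 0.66 at AK138503, which lies past Akt1. At the edges, the first probe inside had medians of -0.73 in lymphoma and -0.04 in no lymphoma, and the last probe outside, in Dio3, -0.38 in lymphoma and 0.03 in no lymphoma. The last probe inside had medians of -0.71 in lymphoma and -0.004 in no lymphoma. The first beyond it, in Tmem121, had medians of -0.48 in lymphoma and -0.08 in no lymphoma.

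Inf2, AK138503 and Adssl1 were most like Akt1 within the window, with a Pearson r of 0.98, 0.97 and 0.97 over the 22 arrays, and Mok was least like it at 0.73. On other chromosomes the 5 most similar genes with at least 3 probes all lay on chromosome 14. They were Gulo, Mipep, Tm9sf1, Hr and BC035942, with r from 0.60 to 0.62. The points share arrays and dyes, and these values describe them without a test.

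Short segments broke the level in 5 places. In lymphoma mouse 8, 5 probes at the end of Dync1h1 averaged -0.01 and 28 probes over 210 kb around BC089617 averaged -0.20, inside a loss of -0.86 to -0.65. The other losing lymphomas read -1.29 to -0.71 and -0.91 to -0.74 at the same probes. In no-lymphoma mouse 13, 5 probes of Klc1, Xrcc3 and Zfyve21 averaged 0.78 in an array otherwise at 0.04 and 0.03. At the same probes no-lymphoma mice 7 and 14 read -0.54 and -0.74, and mouse 2 read 1.05. The remaining no-lymphoma arrays lay between -0.07 and 0.25. These probes had a mean GC content of 42.4%, against 37.4% in the window, and its part was not tested. Lymphoma mouse 1 had the 14 probes at 0.44 named above. No-lymphoma mice 7 and 14 shared a lower segment of 7 probes over 44.1 kb between 109964786 and 110008853, at -0.81 and -1.18. At those probes lymphoma mouse 3 read -1.28, while in the no-lymphoma group the arrays labelled mouse 3 and 4 and mouse 9 read 0.27, 0.42 and 0.31. No-lymphoma mice 7 and 14 share a scan batch and correlated at 0.82 over all autosomal probes, and the part of either in this segment was not tested. The mean GC content of its probes was 37.9%, against 37.4% in the window.

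Gene means were also compared between the groups with limma over all 12999 autosomal genes with at least 3 probes. Lower values in lymphoma passed an adjusted p under 0.05 for 2.52% of them (327 genes) and higher values for 6.67% (867 genes). Centred on the mode, the fit called 100 genes lower and 987 higher, and with normexp background correction 60 and 600. Of the 29 window genes tested, 5 were lower and 0 higher: Mark3, Mok, Klc1, AK005606 and AK147592. Akt1 was not among them. The window was drawn on the levels of these same arrays, so the count is a description. The count was 14 after turning the sign of no-lymphoma arrays 3, 4 and 9, and 25 within scan batch 3. It was 0 when the 5 arrays in which the Atm probe was low were left out (11 by limma at an unadjusted p under 0.05). The 29 genes had a median difference of -0.47, against 0.05 over all genes tested.

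Genes of the PI3K-Akt pathway outside the window were not used to draw it, and 28 of 37 listed had at least 3 probes. Of these 28, 2 were higher in lymphoma and 1 was lower. Of all genes 6.67% passed as higher, 2.52% as lower and 9.19% in either direction. The count is near that share and is no result about the pathway, so the genes below are described singly. Their median difference was 0.07, against 0.05 over all genes. Rictor, on chromosome 15, the subunit of the Mtor complex that activates Akt, read 0.04 to 0.59 with a mean of 0.40 ± 0.25 in lymphomas, and -0.18 to 0.19 with a mean of 0.02 ± 0.11 in no-lymphoma mice (SD, n = 8 and n = 14). The difference was 0.37 (limma, adjusted p = 0.00174), and all 8 lymphomas and 10 of 14 no-lymphoma mice lay above 0. In lymphoma mice 1, 3, 4, 5 and 6 Rictor read 0.52 to 0.59, near the 0.58 of a gain to 3 copies. How far along chromosome 15 this level extended was not tested, so the values are not particular to Rictor. Lymphomas 2 and 7 were the lowest of the group at 0.05 and 0.04. Blocking on the scan batch moved the limma adjusted p to 0.127, and leaving out the 5 arrays in which the Atm probe was low to 0.0426, with a range of 0.00171 to 0.995 over the alternatives. The highest values came from fits within 1 batch.

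Inpp4b on chromosome 8, a phosphatase of the pathway's lipid signals, averaged -0.20 ± 0.09 in lymphomas, all 8 below 0, and -0.03 ± 0.06 in no-lymphoma mice. The difference was -0.16 (limma, adjusted p = 0.00442). It was weaker when arrays were centred on the mode, with an adjusted p of 0.0728 by limma, and passed with the block at 0.0198. Over the alternatives this p ran from 0.000488 to 0.9999, the highest again within single batches. Rptor on chromosome 11, the subunit of the other Mtor complex, averaged 0.17 ± 0.13 in lymphomas and 0.00 ± 0.10 in no-lymphoma mice. Its difference of 0.16 had a limma adjusted p of 0.0389, which the block moved to 0.478 and leaving out the same 5 arrays to 0.234, and it passed in 1 alternative, the one without probes near background.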

How the data were processed

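DNA of 22 mice was hybridised to Agilent mouse 244A arrays, 1 array per mouse and 1 dye orientation. Per the file headers, the deposited processed intensity of each channel was background-subtracted and dye-normalised by Feature Extraction 9.1.3.1 (9.1 in the submitters' processing notes), and the deposited log10 ratio is red over green; the deposited value table equalled it with a largest difference of 0 and has column medians of -0.02 to 0.02. Log2 ratios were computed from the processed intensities, outlier spots were removed (3 to 111 in an array), replicate spots of each probe were combined by their mean, and arrays were centred on the autosomal median with no loess or quantile step. Spots not well above background made up 0.089% to 1.54% of an array. Probe positions come from the array files, joined by feature number, and probe sequences and gene names from the 4 files that hold them. Coordinates are of a build not given in the sources used here. Gene names were updated through the RefSeq table of GRCm38.p6, used for names only (11673 autosomal names matched a symbol, 3442 a synonym, and 9523 stayed as in the files). Probes of a gene were averaged, genes with at least 3 probes were tested, and 86 genes on several chromosomes or over 3 Mb were left out. Segments came from optimal partitioning (a penalty factor of 3 on log n and the noise variance, segments of 5 or more probes, values clipped at 4 noise SD from a running 7-probe median) in Python 3.11.15 with numba 0.67.0. Gene means were tested with limma 3.58.1 (lmFit, eBayes, Benjamini-Hochberg) in R 4.3.3. Both were tested on simulated data. The normexp alternative used median instead of mean spot signals, which all arrays have. Each array is 1 mouse, so spread between arrays is spread between mice, and their number limits the precision.

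Genes were named by a rule: Akt1, listed genes with a probe in the window, the first and last named gene, genes beside steps, genes of the highest and lowest spread, the 5 genes elsewhere most like Akt1, and pathway genes past the threshold. The members and lists were chosen with earlier results of these data known. Some pathway genes are not reported here.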

Additional observations from a re-analysis of the deposited data

Results flagged for a closer look

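Dixon's test for a single distant sample was applied to the 8 lymphoma arrays for 34 levels and named genes, and marked 7. Chance marks about 1 in 20 such groups, and the levels share probes and neighbours, so they are not separate events. The window was chosen for holding arrays that gained it beside arrays that lost it, so a gaining array that stands apart inside it follows from that choice, and the marks there are a description. Lymphoma mouse 7 lay above the others in the first 10th of the window at 0.616, where the others read -0.86 to -0.181. It did so at Ppp1r13b with 0.903, at Dync1h1 with 0.732, at the Xrcc3 probe with 0.654 and at the Eif5 probe with 0.543. Lymphoma mouse 1 was above the others over the 1 Mb before the window at -0.188, where the other 7 read -0.91 to -0.83. It was also above them beyond Igh, at -0.368 against -0.995 to -0.833.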

How the results depend on the processing

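No paired analysis was possible because the labels give each mouse its own number and no pairing between the groups. The lymphoma minus no-lymphoma level of the whole window kept its sign in every alternative run, at -0.45 in the main setting, and moved beyond the SD within scan batch 1 (-1.10). The last 10th differed by -0.37, by -1.52 within batch 1 and, reversed, by 0.23 within batch 6. Akt1 gave -0.36, -1.59 and, reversed, 0.34 in the same settings. The only no-lymphoma array of batch 1 was that of mouse 2, the highest of its group over the window and at Akt1. Lymphoma arrays called lost over Akt1 and over the last 10th, 6 in the main setting, were 5 with normexp. Calls of loss over Akt1 and over the last 10th in no-lymphoma arrays were 0 in the main setting and 3 with a limit of 0.15. They were 1 with centring on the mode and 1 with the sign turned for the arrays labelled mouse 1, 3 and 4. Calls of gain in that group over both, 2 in the main setting, were 1 with a limit of 0.4, with normexp, without scan batch 2, without the 5 arrays in which the Atm probe was low and with that turned sign. The last 3 settings were chosen for the calls after seeing the data. Breakpoints in the window numbered 25, and 44 and 16 with penalties of 2 and 5. The no-lymphoma arrays with one numbered 7, and 4 with the penalty of 5 and 3 with normexp.

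All genes past the limma threshold numbered 1194, and 660 with normexp, 710 without scan batch 2, 489 without the 5 arrays, 426 with the batch as a block, 624 and 41 within batches 3 and 5, and 0 within batches 1 and 6, where limma gave 989 and 737 genes at an unadjusted p under 0.05. Window genes past it numbered 5, and 2 with centring on the mode, 9 with normexp, 14 and 1 with the signs turned for arrays 3, 4 and 9 or 1, 3 and 4, 1 without scan batch 2, without the noisiest arrays and with the block, 0 without the 5 arrays, 25 within batch 3 and 0 within batches 1, 5 and 6. For the last 4 counts of 0, limma at an unadjusted p under 0.05 gave 11, 12, 8 and 0. Pathway genes past it numbered 3, and 1 with the block, 1 within batch 3 and 0 within batches 1 and 6, where limma at an unadjusted p under 0.05 gave 1 and 0. Rptor was reversed within batch 5 at -0.00836. The causes were not tested, but fits within a batch rest on 3 or 4 arrays.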

Other observations

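Pathway genes Pik3cd and Mtor, outside the window, read far above 0 in lymphoma mice 2 and 8, which had lost Akt1. They were picked after their values were seen and did not pass the test between groups. Pik3cd, the catalytic PI3-kinase subunit of leukocytes on chromosome 4, read 3.42 in lymphoma mouse 2 and 1.49 in lymphoma mouse 8, with -0.04 to 0.47 in the others and -0.37 to 0.28 in the no-lymphoma mice (limma, adjusted p = 0.0554). Mtor, also on chromosome 4, read 2.26 and 1.46 in the same 2 lymphomas (limma, adjusted p = 0.0734). Its probes end at 147544793 and those of Pik3cd start at 148638719, so the 2 genes are near each other and need not be separate events. Lymphoma mice 3, 4, 5 and 6, which had also lost Akt1, read 0.05 to 0.27 at Mtor. Lymphoma mice 1 and 7, which gained Akt1, read 0.33 and 0.24 at Pik3cd and 0.19 and 0.17 at Mtor.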
